A study of Mus musculus with 6 samples.

Results

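The interferon-induced proteins with tetratricopeptide repeats (IFIT) and the interferon-induced transmembrane proteins (IFITM) are 2 families of antiviral effectors, and 7 of their mouse genes are described here. They were taken by name from the gene table, which gave Ifit1, Ifit2 and Ifit3 of the first family and Ifitm1, Ifitm2, Ifitm3 and Ifitm6 of the second, 7 of the 35275 genes counted. RNA came from primary cultures of microglia, macrophages that reside in the brain, from C57/BL6 mice. In the Treg co-cultured group (3 samples), regulatory T cells (Tregs) in transwell inserts were first kept for 24 hours over slices of brain, 5 days after a transient block of the middle cerebral artery (tMCAO, a stroke model). The inserts were then held over the microglia for 2 days. The control group (3 samples) was microglia without Tregs. No slice or insert is recorded for the controls, so effects of the Tregs and of slice material or inserts cannot be told apart. The labels do not say whether the samples of a group are independent cultures or animals. The p-values therefore rest on the spread among these samples alone, and that spread may be technical.

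Most genes of both families are switched on by interferons. Type I interferons bind the receptor pair IFNAR1 and IFNAR2, the kinases JAK1 and TYK2 phosphorylate STAT proteins, and STAT2 with IRF9 enters the complex ISGF3, which binds the interferon-stimulated response element (ISRE) near the start of target genes. IFIT proteins act in the cytoplasm, where IFIT1 binds viral RNA whose cap lacks ribose methylation and keeps it from translation, and human IFIT3 stabilises IFIT1. IFITM proteins sit in the plasma and endosomal membranes, and IFITM3 blocks the fusion of enveloped viruses with endosomes. In the brain, microglia respond to interferon and raise such genes during infection and after injury.

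Start regions are shown for 5 genes of the families that rose and for Ifit2, which rose without a match in the regions searched. They were chosen because the letters of the ISRE core were present in all but Ifit2. The sequences are from the RefSeq promoter table (GRCm38.p6), run 5′ to 3′ along the gene from 220 bases before the start site to 30 bases from it. Capitals mark the ISRE core as searched on both strands, a pair of GAAA with any 2 bases between, or a pair of TTTC likewise. Ifit1 is at chr19:34640669-34640918 (plus strand), Ifit3 at chr19:34583309-34583558 (plus), its copy Ifit3b at chr19:34607737-34607986 (plus), Ifitm3 at chr7:141010715-141010964 (minus), Ifitm2 at chr7:140955932-140956181 (minus) and Ifit2 at chr19:34550474-34550723 (plus).
Ifit1: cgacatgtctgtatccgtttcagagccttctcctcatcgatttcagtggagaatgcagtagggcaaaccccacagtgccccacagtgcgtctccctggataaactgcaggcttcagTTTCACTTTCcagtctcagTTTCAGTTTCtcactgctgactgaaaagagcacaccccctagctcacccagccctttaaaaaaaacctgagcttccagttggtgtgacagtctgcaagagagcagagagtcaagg
Ifit3: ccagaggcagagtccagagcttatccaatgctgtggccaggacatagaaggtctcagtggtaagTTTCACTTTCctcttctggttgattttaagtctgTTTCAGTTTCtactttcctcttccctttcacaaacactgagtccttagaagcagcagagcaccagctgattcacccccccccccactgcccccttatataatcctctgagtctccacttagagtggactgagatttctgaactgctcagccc
Ifit3b: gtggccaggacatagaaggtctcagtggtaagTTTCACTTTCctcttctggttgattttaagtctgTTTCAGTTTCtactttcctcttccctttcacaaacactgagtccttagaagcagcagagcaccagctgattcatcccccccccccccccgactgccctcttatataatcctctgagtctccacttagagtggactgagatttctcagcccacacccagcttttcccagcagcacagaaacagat
Ifitm3: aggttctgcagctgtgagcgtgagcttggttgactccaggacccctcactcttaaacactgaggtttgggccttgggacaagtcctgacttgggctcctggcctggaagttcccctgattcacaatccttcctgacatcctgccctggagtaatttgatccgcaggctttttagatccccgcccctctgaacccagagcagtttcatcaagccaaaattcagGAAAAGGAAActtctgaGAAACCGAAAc
Ifitm2: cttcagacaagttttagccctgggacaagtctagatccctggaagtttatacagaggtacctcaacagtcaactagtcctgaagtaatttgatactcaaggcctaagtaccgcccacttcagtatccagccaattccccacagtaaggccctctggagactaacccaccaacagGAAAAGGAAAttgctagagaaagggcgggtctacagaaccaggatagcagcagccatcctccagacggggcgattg
Ifit2: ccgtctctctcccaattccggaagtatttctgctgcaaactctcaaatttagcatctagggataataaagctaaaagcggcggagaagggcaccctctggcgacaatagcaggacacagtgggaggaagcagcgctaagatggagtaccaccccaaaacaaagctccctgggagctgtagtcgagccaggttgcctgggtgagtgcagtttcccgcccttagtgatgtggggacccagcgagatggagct

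All 7 members were in the table, which holds windows of 300 bases, 250 before the start and 50 from it. Ifit1, Ifit3 and Ifitm3 had 2 ISRE core matches each, Ifitm2 had 1, and Ifit2, Ifitm1 and Ifitm6 had 0, where 3.44% of all 32851 windows had at least 1. In Ifit1 the matches began 104 and 85 bases before the start, and in Ifit3 156 and 122 bases before it. The Ifit3 window was 94.5% identical to that of Ifit3b over 274 aligned positions, and both hold the same pair of matches. In Ifitm3 the matches lay 2 to 11 and 19 to 28 bases past the RefSeq start. Ifitm2 shared the first of these matches letter for letter, but 46 to 37 bases before its start. A gamma-activated site, searched as TTCNNNGAA (the same on both strands, in 8.3% of windows), was found once each in the windows of Ifit2, Ifitm3, where it overlapped the second ISRE match, and Ifitm6. A match is a description of these letters and not evidence of binding, and Ifit2 has a second RefSeq window that also had 0 ISRE core matches. The counts of 0 hold for the windows searched alone. Both Ifit2 windows lie near the first base of a gene that runs to 34576419, and sequence further inside it was not searched. GENCODE M21 also lists transcripts that start outside the windows, at 140967221 for Ifitm1 and at 141017924 for Ifitm6, and those start regions were not searched.

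**Figure D1:**
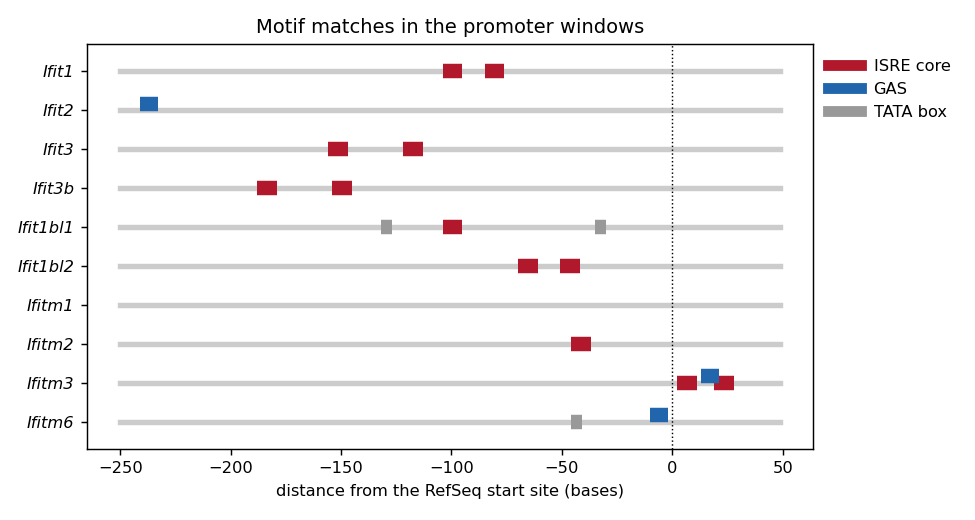
Motif matches by distance from the RefSeq start site (x axis, bases; negative values lie before it) in the first window of the 7 members and of 3 relatives, one gene per row. Grey lines are the windows, red boxes ISRE core matches, blue boxes gamma-activated sites and dark grey boxes TATAAA matches; Ifit1 and Ifit3 have 2 red boxes before the start, Ifitm3 has 2 just after it, and Ifit2, Ifitm1 and Ifitm6 have no red box.

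The libraries held 20987384 to 22084542 counts in the co-cultured group and 16972758 to 21465960 counts in the control group, with 17951 to 18287 and 17898 to 18507 genes detected. Microglial identity was checked against 12 markers: Csf1r, the receptor that microglia need for survival, stood at 2476 ± 158 CPM in co-cultured microglia and 2795 ± 28.4 CPM in control microglia. CPM are counts relative to the scaled library total, and values with ± are means with their SD over the 3 libraries of a group (n = 3). Siglech, by contrast, had 18 counts in all libraries together. Among 13274 genes that passed the count filter, 3432 (25.9%) were called higher and 3320 (25.0%) lower in co-cultured microglia by edgeR's quasi-likelihood test with a Benjamini-Hochberg adjusted p below 0.05. That split moves with scaling, since 40% of the calls were higher under upper-quartile scaling (2731 against 4090 lower) and 40.6% in the FPKM values (2631 against 3842 lower), against 50.8% in the counts scaled by TMM. No scaling moved the median log2 difference of all genes by over 0.1.

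The 3 Ifit genes and the 4 Ifitm genes named above were higher in co-cultured microglia, and for none of them did the groups overlap. The Ifit genes and Ifitm3 rose with log2 fold changes of 2.94 to 3.50, whereas Ifitm2 rose by 0.94. In the background 25.9% of genes were called higher, 1.74% (231 genes) were called and at least 4-fold higher, and 28.6% had groups that did not overlap with the co-cultured one higher. Of the members, 6 reached the filter's cut in every library of both groups. These 6 had a median log2 fold change of 2.95, whereas 27.1% of the 12007 such genes in the table were called higher and their median was -0.00266. Ifitm6 passed the filter through the co-cultured group alone and had to be higher to be tested.

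**Figure D2:**
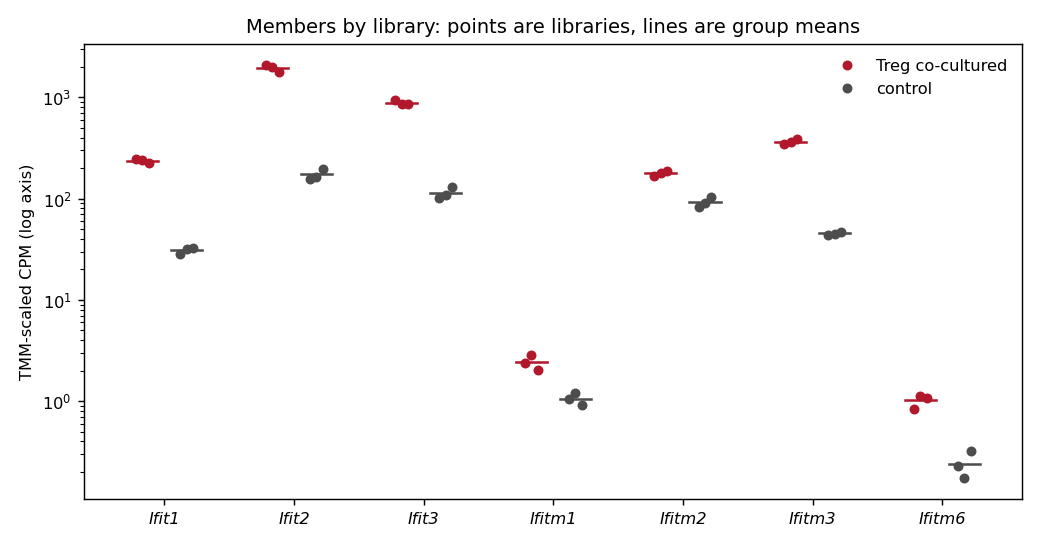
Level of each member (y axis, TMM-scaled CPM on a log axis) in the 3 Treg co-cultured libraries (red, left of each pair) and the 3 control libraries (grey, right). Points are libraries and lines are group means; for all 7 genes every red point lies above every grey one, with the smallest gap at Ifitm2.

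Ifit2, whose human protein binds AU-rich double-stranded RNA, had the highest count of the 7. It stood at 2105, 1992 and 1773 CPM in co-cultured microglia and at 157, 164 and 198 CPM in control microglia. The means of 1957 ± 169 and 173 ± 21.9 CPM differed by 3.50 ± 0.09 on the log2 scale (SE of the fit; adjusted p = 4.53e-12), which ranked 57th from the top of all genes tested. The gene lies on chromosome 19 from 34550694 to 34576419 (plus strand, GRCm38 coordinates of GENCODE M21), and none of its 75-base stretches occurred in a transcript of another gene.

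Ifit3, the partner that stabilises IFIT1 in human cells, had 937, 856 and 853 CPM in co-cultured microglia against 102, 107 and 130.4 CPM in control microglia. The difference was 2.96 ± 0.08 on the log2 scale (adjusted p = 5.51e-15). Ifit1, the cap-binding member, had 248, 239.8 and 223 CPM against 28.1, 31.7 and 32.8 CPM, a difference of 2.94 ± 0.06 (adjusted p = 1.65e-27). The profiles of Ifit1 and Ifit3 were close, with a distance of 0.183 between their centred log2 CPM over the 6 samples, against 0.712 between Ifit1 and Ifit2. In both groups the library numbered 3 stood at an edge: co-cultured library 3 was the lowest of its group for the 3 Ifit genes, and control library 3 was the highest of its group. For Ifitm2 and Ifitm3, library 3 was the highest in both groups.

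Part of the Ifit3 count is uncertain, because 687 of its 1671 transcript stretches of 75 bases (41.1%) also occur in Ifit3b, a copy in the same cluster. How reads that match both were counted is not given in the sources used. Ifit3b itself, listed under an older clone name, had 175.6, 161 and 168 CPM against 20.2, 16.4 and 22.2 CPM, a difference of 3.09 ± 0.07 (adjusted p = 7.69e-22). With both genes summed, an alternative chosen after seeing the data, the log2 fold change of Ifit3 was 2.98.

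Ifitm3, the endosomal restriction factor for influenza virus, rose by 3.01 ± 0.06 on the log2 scale (adjusted p = 7.99e-29). Its libraries stood at 345, 359 and 387 CPM in co-cultured microglia and at 43.8, 45.1 and 46.9 CPM in control microglia, a spread of 1.59 CPM (SD) among the controls. Ifitm2, a paralogue in the same cluster that is found in endosomes in human cells, had 169, 179 and 185.5 CPM against 82.7, 90.8 and 104 CPM. Its difference of 0.94 ± 0.07 (adjusted p = 3.62e-11) ranked 751st of all genes tested from the top. For Ifitm2, 42% of the 75-base stretches occur in other genes' transcripts, chiefly in Gm45717, a gene model on the same strand that shares 268 exonic bases (40.9%) with it and also overlaps exons of Ifitm5. For Ifitm3 that share was 0.662%.

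The other pair was scarce. Ifitm1, which restricts virus entry at the cell surface, had 51, 61 and 42 counts in co-cultured microglia and 23, 21 and 20 counts in control microglia, which is 2.44 ± 0.425 and 1.06 ± 0.148 CPM. It rose by 1.21 ± 0.28 on the log2 scale (adjusted p = 4.29e-04). Ifitm6 had 18, 24 and 22 counts against 5, 3 and 7 counts (1.02 ± 0.154 and 0.24 ± 0.0748 CPM), a difference of 2.03 ± 0.47 (adjusted p = 4.73e-04). A control library with 3 counts is at the level that a count of 0 allows, so the size of the Ifitm6 difference is loosely set: it was 0.96 on the log2(FPKM + 1) scale and 2.29 without control replicate 3.

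**Figure D3:**
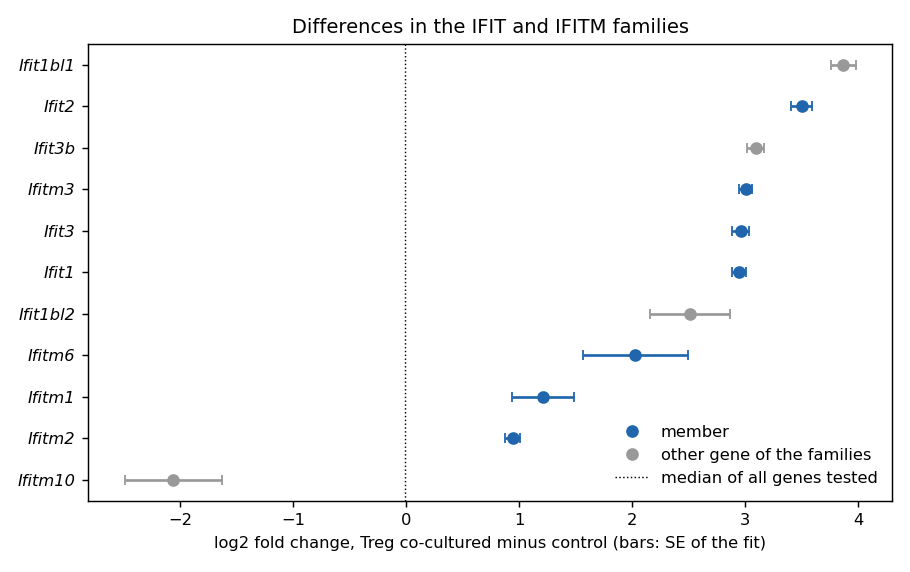
Log2 fold change, Treg co-cultured minus control (x axis; bars are the SE of the fit), for the 7 members (blue) and the 4 other tested genes of both families (grey), sorted by value. The dotted line is the median of all genes tested; Ifit1, Ifit3, Ifitm3 and Ifit3b sit between 2.94 and 3.09, Ifitm2 at 0.94, and Ifitm10 at -2.06.

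Levels of different genes can be set side by side only per length, in the deposited FPKM (fragments scaled by transcript length and library total). In co-cultured microglia, Ifitm3 (524 ± 33.7 FPKM), Ifit2 (500.5 ± 40.6 FPKM) and Ifit3 (494 ± 22.9 FPKM) overlapped at the top. Then came Ifitm2 at 277 ± 14.9, Ifit1 at 87.1 ± 4.18, Ifitm1 at 2.27 to 3.21 and Ifitm6 at 1.51 to 2.06 FPKM, none of which overlapped the next in order. In control microglia Ifitm2 led at 151 ± 16.9 FPKM, above Ifitm3 (68.2 ± 2.10) and Ifit3 (66.4 ± 8.53), which overlapped. Ifit2 followed at 46.3 ± 5.69, Ifit1 at 11.9 ± 0.884, Ifitm1 at 1.06 to 1.403 and Ifitm6 at 0.327 to 0.604 FPKM, again without overlap between neighbours.

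The leading gene of the Ifitm family therefore differed between the groups. Ifitm3 carried 64.4% to 65.5% of the family's FPKM in co-cultured microglia and 29.1% to 32.45% in control microglia, while Ifitm2 carried 33.9% to 34.8% and 66.3% to 69.85%. The ratio of Ifitm3 to Ifitm2 FPKM was 1.89, 1.85 and 1.93 in the co-cultured libraries and 0.489, 0.46 and 0.417 in the control libraries. With 3 libraries against 3, an exact two-sided permutation test over the 20 arrangements gave p = 0.1, the smallest it allows, and 0.167 after adjustment over the 5 ratios computed. Reads that Ifitm2 shares with other models enter this ratio, and their part was not tested.

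Within the Ifit family the shares differed as well. Ifit2 had 40.6% to 43.1% of the family's FPKM in co-cultured microglia and 33.6% to 34.2% in control microglia, Ifit3 had 40.5% to 42.75% and 47.8% to 49.2%, and Ifit1 had 7.19% to 7.45% and 8.12% to 9.46%. The ratio of Ifit2 to Ifit1 was 5.74 ± 0.195 in co-cultured and 3.90 ± 0.306 in control microglia (exact permutation p = 0.1, adjusted 0.167; no overlap). For Ifit3 to Ifit1 the ratios overlapped, at 5.67 ± 0.207 and 5.59 ± 0.450 (exact permutation p = 0.8), and so did those of Ifit3 to Ifit3b, at 6.01 ± 0.163 and 6.68 ± 0.863 (exact permutation p = 0.4). Across the families, the ratio of Ifitm3 to Ifit2 was 1.06 ± 0.157 in co-cultured and 1.48 ± 0.130 in control microglia (exact permutation p = 0.1, adjusted 0.167).

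**Figure D4:**
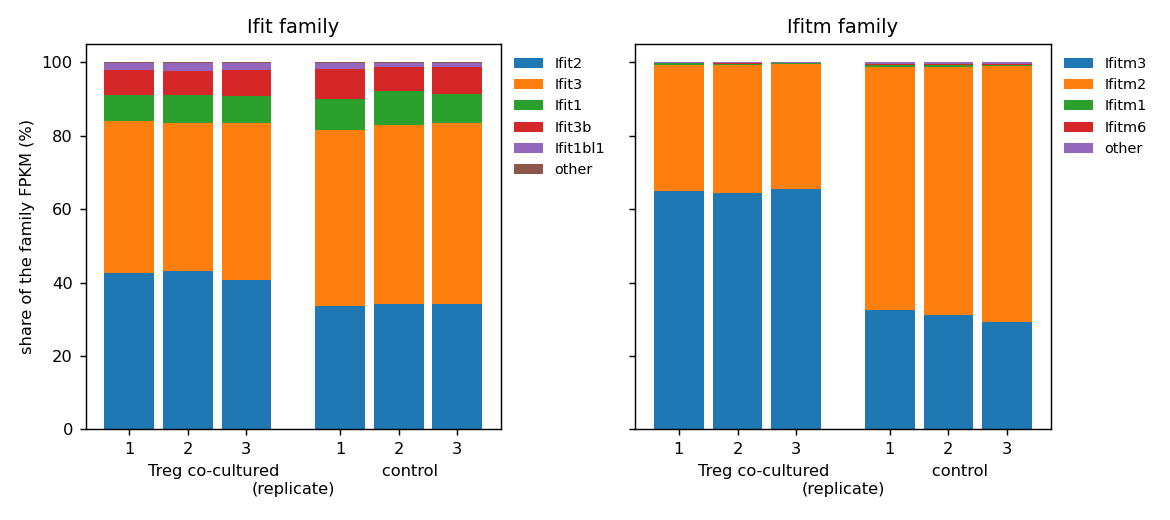
Share of each gene in the summed FPKM of its family (y axis, percent) in every library, Treg co-cultured left and control right, for the Ifit family (left panel) and the Ifitm family (right panel). Ifitm3 (blue, right panel) holds 64.4% to 65.5% in the co-cultured libraries and 29.1% to 32.45% in the controls, with Ifitm2 (orange) taking most of the rest.

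Each family has a cluster. In order of position, Ifit2, Ifit3, Ifit1bl1, Ifit3b, Ifit1bl2 and Ifit1 span 99.3 kb of chromosome 19. Ifitm5, Ifitm2, Ifitm1, Ifitm3 and Ifitm6 span 69 kb of chromosome 7. Genes of no family that lie between them were not looked for. Of 6 relatives that are no members, 4 were tested. Ifit1bl1, a relative of Ifit1 that lies between Ifit3 and Ifit3b, rose by 3.87 ± 0.11 (58.7, 60.3 and 48.3 CPM against 4.31, 3.06 and 3.94 CPM; adjusted p = 8.51e-21). Ifit1bl2, which starts next to Ifit1 on the opposite strand, had 51, 43 and 43 counts against 9, 7 and 7 (log2 fold change 2.51 ± 0.35, adjusted p = 3.41e-07), and passed the filter through the co-cultured group alone. Both ISRE core matches of its first promoter window are the same bases as those of Ifit1. Ifitm10, which lies on chromosome 7 outside the cluster, went the other way with 2, 10 and 10 counts against 27, 29 and 34 (-2.06 ± 0.43, adjusted p = 1.40e-04), and passed through the control group alone. Ifitm5, a gene of bone-forming cells, had 10, 13 and 9 counts against 6, 7 and 4. Ifitm7, which lies on chromosome 16, had at most 4 counts in a library, and neither gene was tested.

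Few transcripts of the interferons themselves were counted. Of 21 interferon genes in the table, 15 had 0 counts in all libraries and none passed the filter. Ifnb1, the interferon-beta gene, had 0, 5 and 3 counts in co-cultured microglia and 0 in each control library, Ifna5 had 2, 0 and 1 against 0, and Ifng had 1, 1 and 0 against 0. A count of 0 in a control library allows up to 0.136 to 0.173 CPM, and these limits cover counting error only. Interferon made before the time of harvest, or by the Tregs, is not measured here.

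The receptors for type I interferon were not called, with Ifnar1 at 258 ± 13.5 and 257 ± 9.95 CPM (adjusted p = 0.960) and Ifnar2 at 122 ± 5.02 and 125 ± 6.47 CPM (adjusted p = 0.677). Of the components of ISGF3, Stat2 rose to 914 ± 58.0 CPM in co-cultured microglia, against 212 ± 7.44 CPM in control microglia (log2 fold change 2.10 ± 0.05, adjusted p = 1.46e-25), and Irf9 to 115 ± 2.55 against 75.2 ± 3.01 CPM. The receptor kinase gene Jak2 also rose, by 0.61 ± 0.06, and Ifngr1, the ligand-binding chain of the interferon-gamma receptor, fell by 0.42 on the log2 scale. In this list of 10 receptor and signalling genes 5 rose, 1 fell and 4 were not called, with a median of 0.18. The shares over all genes tested were 25.9% higher and 25.0% lower.

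Of 8 genes listed around the restraint of interferon signalling, 6 rose and none fell (median 1.37), where 25.9% of all genes tested were called higher. Usp18, which removes ISG15 from proteins and blocks IFNAR2, had 128 ± 7.85 CPM in co-cultured and 24.2 ± 2.39 CPM in control microglia, a log2 fold change of 2.40 ± 0.07. Socs3 and Socs1, inhibitors of JAK kinases, rose by 2.89 ± 0.16 and 2.10 ± 0.27. The phosphatase gene Ptpn6 rose by 0.63 ± 0.05. Isg15 is counted among the 6 as the ubiquitin-like modifier that USP18 removes. It rose by 3.31 ± 0.23 and had 217, 218 and 207 CPM against 18.1, 16.6 and 29.5 CPM.

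Genes tied to how IFIT proteins act were split or not called, where 25.9% of all genes tested were called higher and 25.0% lower. The counts below were not tested against those shares. Of 6 genes for capping and methylating messenger RNA, Rngtt, the capping enzyme, rose by 0.42 ± 0.06 and Pcif1 by 0.24 ± 0.06, and 4 were not called. The Pcif1 call was lost in the FPKM values (adjusted p = 0.0762 and 0.0780 with pseudocounts of 0.1 and 1). Cmtr1, which adds the first ribose methyl group, had 3.51 ± 0.563 and 3.12 ± 0.468 CPM (adjusted p = 0.482). Among 14 genes of the translation factor eIF3, which human IFIT1 and IFIT2 bind, 3 rose, 5 fell and 6 were not called (median -0.07). Eif3f fell by 0.64 and Eif3k by 0.44 on the log2 scale, whereas Eif3c rose by 0.34 ± 0.05, Eif3d by 0.44 ± 0.07 and Eif3b by 0.29 ± 0.05. The fifth fall, that of Eif3e, had an adjusted p of 0.0457, and 0.211 without control replicate 2.

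Among all genes tested, 25.9% were called higher and 25.0% lower. Of 12 partners and modifiers of IFITM proteins, 4 were higher, 5 lower and 3 not called (median -0.14). That balance depends on scaling, since upper-quartile scaling and library totals alone each gave 2 higher and 7 lower, and the FPKM values 2 higher and 6 lower. Setd7, a methyltransferase that modifies IFITM3, fell by 0.85 on the log2 scale to 52.1 ± 1.8 CPM, against 94.2 ± 2.08 CPM in control microglia. Cd81, a tetraspanin, fell by 0.56 to 118 ± 7.5 CPM, against 175 ± 11.0 CPM. Vapa, a membrane anchor protein that IFITM3 binds, rose by 0.37 ± 0.06 and Vapb by 0.25 ± 0.05. Zdhhc7 and Zdhhc3, palmitoyl transferases, rose by 0.17 ± 0.06 and 0.15 ± 0.05, and both calls were lost with upper-quartile scaling (adjusted p = 0.149 and 0.237).

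Other interferon effectors rose as well, where 25.9% of all genes tested were called higher. Of 11 antiviral effectors outside both families, 10 rose (median 1.57), among them Isg20, an exonuclease, by 3.83 ± 0.12, Rsad2, which encodes viperin, to 945 ± 129 CPM against 79.6 ± 7.10 CPM, Mx2 by 2.19 ± 0.09 and Samhd1 by 1.57 ± 0.05. Ch25h was not called (adjusted p = 0.501). The 8 oligoadenylate synthetase genes of the next list rose, with Oas2 at 2.62 ± 0.06 and Oasl1, a synthetase-like protein, at 4.89 ± 0.11. All 5 guanylate-binding protein genes that reached the cut in every library of both groups rose (median 2.24). No test of the members against these lists was made.

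**Figure D5:**
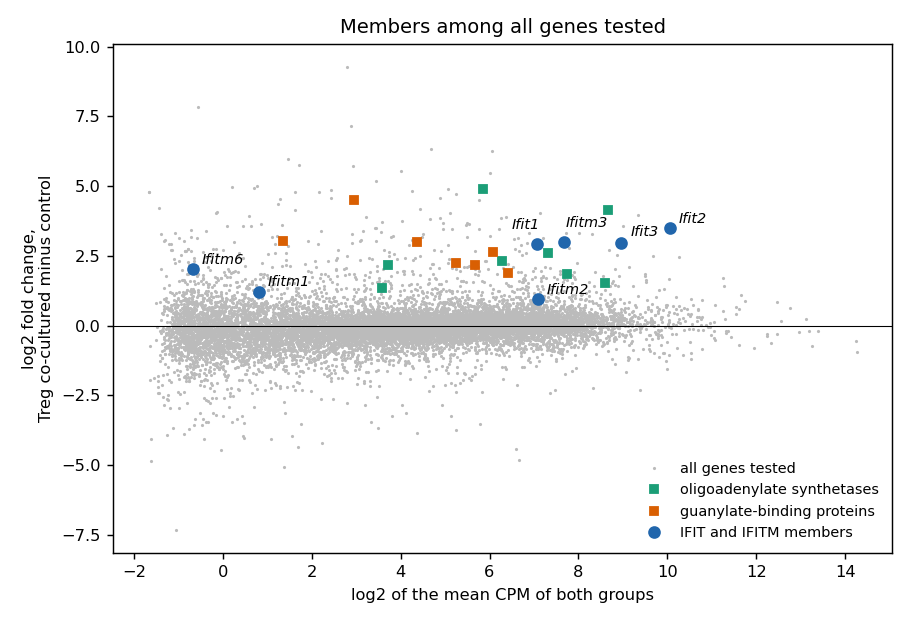
Log2 fold change, Treg co-cultured minus control (y axis), against the log2 of the mean CPM of both groups (x axis) for the 13274 genes tested (grey), the 7 members (blue), the oligoadenylate synthetase genes (green) and the guanylate-binding protein genes (orange). Ifit2, Ifit3, Ifitm3 and Ifit1 lie between 2.94 and 3.50 at high levels, and Ifitm2 lies at 0.94.

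The genes whose profile over the 6 samples was nearest to a member were found by the Euclidean distance of centred log2 CPM among 9652 genes, passing over the members. That distance is set mostly by the size of the difference between the groups. Zbp1, a sensor of left-handed nucleic acid helices, was the nearest gene outside the members to Ifit1 (0.19), Ifit3 (0.116) and Ifitm3 (0.196), and stood at 202 ± 6.37 CPM in co-cultured and 25.9 ± 2.88 CPM in control microglia. H2-Q7, a non-classical MHC class I gene, was the second nearest to Ifitm3 (0.201). Nearest to Ifit2 was Fgl2 (0.136), which encodes a fibrinogen-like protein. Nearest to Ifitm2 were Prdx5, a peroxiredoxin (0.0945), and Cfp, which encodes properdin of the complement system (0.101). Among the members themselves, Ifit1, Ifit3 and Ifitm3 lay within 0.183 to 0.293 of one another, and Ifitm2 lay 2.52 from Ifitm3.

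Other measures differed between the groups along with the members. Of 11 microglial markers tested, 4 were higher and 7 lower, and their summed level was 4483 to 5016 CPM in co-cultured and 6808 to 7061 CPM in control microglia. Of 10 markers of monocytes and border macrophages, 4 were tested and 3 were higher (729 to 796 against 439 to 486 CPM), with Pf4 at 158, 247 and 150.0 CPM against 20.6, 24.7 and 29.0 CPM, and Ly6c2 had 1 count in all libraries together. For T cells, Cd2, Ctla4 and Trac were at 0 in every library, and Cd3e had 10, 2 and 3 counts against 0. Of 6 T cell markers tested, 1 was higher and 3 lower (54.9 to 60.7 against 125 to 140 CPM, carried mostly by Cd28). Cd4 was higher, with 135, 133 and 136 counts against 41, 42 and 72. Foxp3 was lower, with 38, 36 and 29 counts against 79, 53 and 66, as were Ikzf2 and Cd28. The neutrophil markers S100a9, Ly6g, Retnlg, Ltf and Cxcr2 were at 0 in every library, and the list summed to 2.10 to 3.16 against 1.63 to 2.06 CPM. Mitochondrial transcripts made up 0.636% to 0.772% of counts in co-cultured and 1.32% to 1.38% in control libraries, and ribosomal protein transcripts 1.15% to 1.34% and 1.88% to 2.09%. The part of these shifts in the result was not tested, and in bulk RNA fewer cells of a type and less RNA per cell cannot be told apart.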

How the data were processed

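RNA from 3 Treg co-cultured and 3 control samples of mouse microglia was made into cDNA with the SMART-Seq HT kit and sequenced in paired reads of 75 bases, per the labels' protocols. STAR, without a version, HTSeq 0.11.2 and the build GRCm38 are named in the submitters' processing notes; the annotation release, counting options and strand setting are not given in the sources used. Read counts per gene, not normalized, were deposited by the authors, as were FPKM values made from the same counts, which served for levels between genes and in alternatives. Without molecular identifiers, limits from counts cover counting error only.

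Symbols came from Ensembl identifiers, of which 34490 (97.8%) were in GENCODE M21. edgeR 4.0.16 (R 4.3.3) fitted all genes kept by filterByExpr (at least 10 counts, 0.466 CPM, in 3 libraries) with TMM scaling, robust dispersion and group as the only term. Two-sided quasi-likelihood F-tests were adjusted by the Benjamini-Hochberg method over 13274 genes, with calls at 0.05. The test was first run on simulated data with known changes. FPKM ratios were compared by exact permutation on the log scale. Named are every member, every relative, up to 4 genes per list with the smallest adjusted p plus those against its majority, and the nearest profiles of each member, of which some are given. The interferon genes with counts, Ifnar1, Ifnar2, Isg15, Cmtr1, Eif3e, Rsad2, Ch25h and the cell type markers were named after their values were seen. Some genes that the rule names are left out of the text. Members and lists were chosen with earlier results of these data known. DESeq2 1.42.0, limma 3.58.1, other scalings, the second sheet, a replicate block and leaving out libraries were the alternatives. Titles share replicate numbers, but deviations from the group means of same-numbered samples did not correlate (r = -0.0332, -0.0228 and -0.0266), so no pairing was used.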

Additional observations from a re-analysis of the deposited data

How the results depend on the processing

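All 7 members stayed called higher in each of 17 alternative settings, and none changed direction. For comparison, 2631 of all 13274 genes were called higher in the log2(FPKM + 0.1) values and 3468 with RLE scaling. The settings are not independent of one another. The second sheet nearly repeated the main fit, with 3429 genes higher and 3317 lower, against 3432 and 3320. Ifitm6 passed the count filter through the co-cultured group alone, so its direction was set in advance wherever that filter was kept. Ranges of the log2 fold change were 2.78 to 2.99 for Ifit1, 3.41 to 3.61 for Ifit2, 2.88 to 3.07 for Ifit3, 2.92 to 3.04 for Ifitm3, 0.86 to 1.04 for Ifitm2, 0.73 to 1.32 for Ifitm1 and 0.96 to 2.29 for Ifitm6. The highest adjusted p values were 0.0344 for Ifitm1 (tested against a 1.5-fold change) and 0.00657 for Ifitm6. Against a null of a 1.5-fold change the calls were 809 higher and 691 lower, by construction fewer than against no change. With the replicate block there were 3448 genes higher and 3307 lower, and all 7 members were called. Leaving out one library gave 3036 to 3259 genes higher and 2991 to 3215 lower. For the other named genes, 51 comparisons lost the call, 20 gained it and 0 reversed. Low counts limit Ifitm1 and Ifitm6, and reads shared with near-identical copies limit Ifit3 and Ifitm2.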

Other observations

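Markers of further cell types are given as values. Among oligodendrocyte markers, 5 reached the filter's cut in every library of both groups and all 5 were lower in co-cultured microglia. The whole list summed to 165 to 179 CPM in co-cultured and 265 to 282 CPM in control microglia, with Mbp, a myelin protein gene, at 66.3 ± 1.57 and 104 ± 3.85 CPM. Of 3 endothelial and mural markers at that cut, 2 were higher and 1 lower (list sum 95.1 to 111 against 104 to 113 CPM). Pecam1 rose to 18.1 ± 1.01 against 4.17 ± 0.742 CPM and Kdr to 33.7 ± 3.51 against 6.21 ± 0.472 CPM. Flt1, the largest in the sum, fell to 47.0 ± 4.46 against 95.6 ± 5.75 CPM. Cdh5 was called higher but missed the cut in a control library. Cldn5 had 3 counts in all libraries together. Of 3 fibroblast markers at the cut, 0 were higher and 0 lower (21.9 to 34.0 against 29.7 to 36.9 CPM). Pdgfra and Dcn were called higher but missed the cut in control libraries. For astrocytes 2 of 6 were higher and 1 lower (33.25 to 41.4 against 30.6 to 37.1 CPM), and for neurons 2 of 4 at the cut were higher (14.1 to 16.3 against 8.60 to 11.5 CPM).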
